A study of Mus musculus with 6 samples.

Results

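Lymphocytes were followed in the mouse aorta through 33 genes of T cells, natural killer (NK) cells and B cells, of which 32 had a probe set that names that gene alone. The genes were chosen by name as markers or working parts of these cells, with earlier results of these data known. The arrays hold 25254 probe sets, and 19752 genes, these 32 among them, have 1 or more that name no other gene. Lck is not analysed here. No member had more than 1 such probe set, so no choice between probe sets was needed. The list holds 15 T cell genes, 6 genes of NK and other cytotoxic cells, and 11 genes of B cells and plasma cells.

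The samples were 3 aortas of apoe-/- mice (ApoE-KO) and 3 of apoe-/- adora1-/- mice (DKO), which lack the adenosine A1 receptor gene Adora1 in addition to Apoe, the gene of apolipoprotein E. All samples came from C57BL/6 mice 20 weeks old, both groups lack Apoe, and the labels name no treatment. The labels number the arrays 1 to 3 in each group and do not say what a number shares, whether littermates or sexes were matched, or whether an array holds 1 aorta. The series text calls the comparison group a knockout of ADORA1, while every sample label of that group names Apoe too, and the genotype is given here as on the samples. No wild-type or Adora1-only mouse was among the samples, so levels cannot be set against a normal artery.

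Mice without apolipoprotein E carry high blood cholesterol and develop atherosclerosis. T cells, which recognise antigen through a receptor joined to the CD3 chains, are known to gather in plaques and in the outer layer of such arteries, and B cells collect mainly in the outer layer and in the fat around it. NK cells and cytotoxic T cells kill target cells with perforin and granzymes. In a whole aorta the RNA of these cells is diluted by smooth muscle, and fewer cells of a type and less RNA per cell cannot be told apart.

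Some arrays stood apart from the rest of their group. In the arrays of replicate 3 of both groups, 10 of 10 lung epithelium genes were above the 4 other arrays. Their mean level was 9.78 in ApoE-KO replicate 3 and 9.14 in DKO replicate 3, against 6.65 to 6.79 elsewhere. Across all probe sets, both replicate 3 arrays lay above the 4 others in 9.0%. In DKO replicate 1, 13 of 15 macrophage genes and 11 of 11 genes shared by all leukocytes, such as Ptprc (CD45), had their lowest value of the 6 arrays, where 19.0% of all probe sets did. The mean level of the leukocyte list was 8.38 on that array and ran from 8.96 to 9.27 on the others. Smooth muscle genes, which mark the labelled tissue, had mean levels between 12.22 and 12.47 on all 6 arrays.

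No lymphocyte gene passed the test of a difference between DKO and ApoE-KO over the spread between replicates. In limma's moderated test without pairing, 0 of 32 members passed an adjusted p of 0.05 (lowest 0.861), beside 0.00% of all probe sets. With the replicate number as a block 0 of 32 passed as well (lowest 0.225), beside 0.174%. Of the members 16 were higher and 16 lower in DKO, with a median difference of -0.001 on the log2 scale, and over all probe sets naming 1 gene 49.6% were higher and the median was also -0.001. At an unadjusted p under 0.05 stood 1 member without the block, beside 5.62% of all probe sets, and 3 members with it, beside 16.2%. Both shares of the members were below these backgrounds.

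The intervals set a bound on what could have been missed. The 95% intervals of the differences had half-widths from 0.15 to 0.71 with a median of 0.25 (log2). In 0 of 32 members did the interval reach beyond a difference of 1, which is a doubling or halving of the measured intensity, and in 9 it reached beyond 0.5. These are intervals of the intensities as deposited. No detection call comes with them, and of the 32 members 31 had a mean below 8.02, the median of all probe sets. Probe sets differ in how brightly they bind, so this places no gene above another, and whether each dim member was above background is not known.

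**Figure D1:**
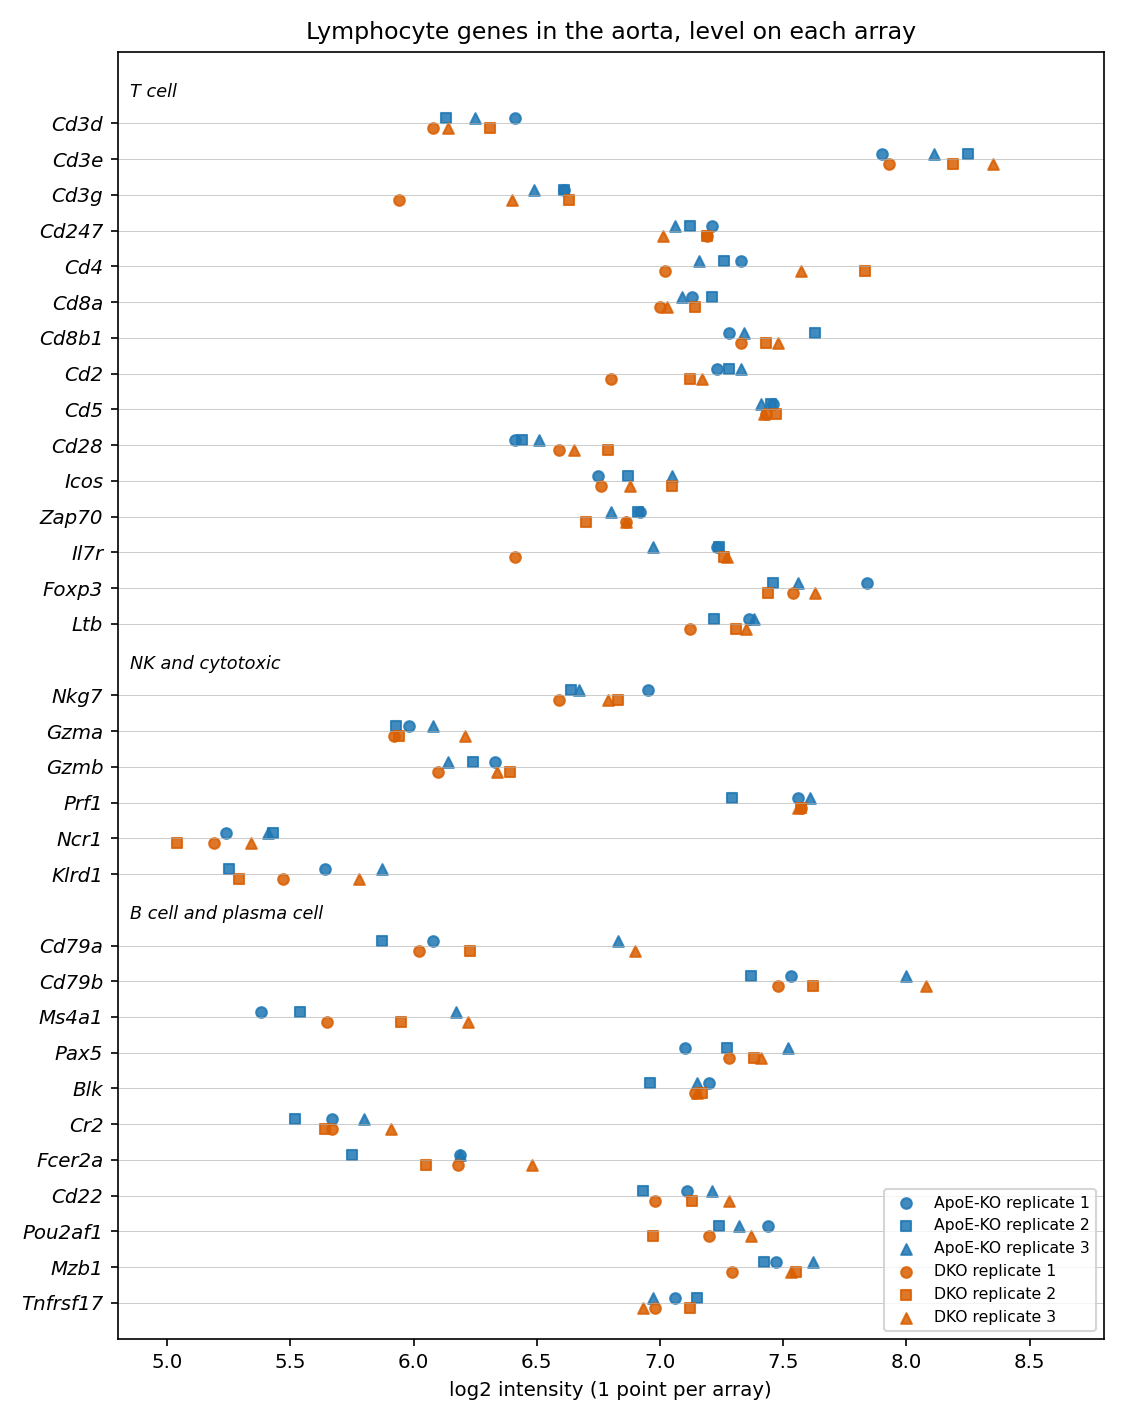
Log2 intensity (x axis) of the 32 lymphocyte genes (rows, grouped by cell type), with 1 point per array, ApoE-KO in blue and DKO in orange, and the point shape giving the replicate number. Values run from 5.04 to 8.35, the colours overlap in every row except Cd2 and Cd28, and Cd79a, Cd79b and Ms4a1 have both triangles (replicate 3) farthest to the right.

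The CD3 chains Cd3d, Cd3e, Cd3g and Cd247 form the signalling part of the T cell receptor and are the defining markers of T cells. Cd3e read 7.90, 8.25 and 8.11 in ApoE-KO replicates 1 to 3 and 7.93, 8.19 and 8.35 in DKO replicates 1 to 3, and the groups overlapped. Its means were 8.09 ± 0.17 and 8.16 ± 0.21 (SD, n = 3 each), a difference of 0.07 (95% interval -0.25 to 0.39; limma, adjusted p = 0.955). Cd3g read 6.61, 6.61 and 6.49 in ApoE-KO against 5.94, 6.63 and 6.40 in DKO. The low value was that of DKO replicate 1, and the groups overlapped. The Cd3g difference was -0.24 (interval -0.63 to 0.15, adjusted p = 0.877), and -0.05 without that array. Cd3d (-0.09) and Cd247 (0.00), the zeta chain, also did not pass.

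Cd3d and Cd3g lie head to head on chromosome 9, and the 250 bases before their starts are shown. Both chains belong to 1 receptor complex, and both had their lowest value on DKO replicate 1. For Cd3d that low was slight, at 6.08 against 6.13 in ApoE-KO replicate 2, and for Cd3g it was 5.94 against 6.40 in DKO replicate 3. Cd3e and Cd247 of the same complex were not lowest on that array. A link between these values and the promoters was not tested. The sequences are RefSeq's for build GRCm38.p6, 5′ to 3′ on the gene's strand, and capitals mark the E box CAGGTG, or CACCTG where it lies on the other strand. E boxes of this kind are bound by E proteins, transcription factors needed for T and B cell development.
Cd3g, chr9:44980432-44980681, minus strand: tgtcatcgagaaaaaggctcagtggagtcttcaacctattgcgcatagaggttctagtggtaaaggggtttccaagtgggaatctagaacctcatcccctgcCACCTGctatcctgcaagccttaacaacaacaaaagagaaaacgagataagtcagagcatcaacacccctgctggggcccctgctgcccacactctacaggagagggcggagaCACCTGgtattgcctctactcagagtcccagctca
Cd3d, chr9:44981536-44981785, plus strand: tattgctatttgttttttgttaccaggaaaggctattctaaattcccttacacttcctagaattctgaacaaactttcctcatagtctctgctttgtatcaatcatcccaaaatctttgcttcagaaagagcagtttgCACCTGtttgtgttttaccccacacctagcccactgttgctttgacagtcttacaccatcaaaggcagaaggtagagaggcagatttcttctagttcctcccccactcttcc
Cd3g has the E box at 2 places, starting 148 and 35 bases before the gene's start, and Cd3d at 1, 112 bases before it. Of the 32 members 22 had promoters in the table, 28 in all, and 13 of the 28 held CAGGTG on either strand, beside 17.2% of the 32851 mouse promoters of the same length. The ETS core AGGAAG, searched on both strands, was in 14 of the 28 and in 29.5% of all, and the octamer ATGCAAAT in 0 of the 28 and in 1.6% of all. Some members have more than 1 promoter here, and those of 1 gene are not independent. Counted by gene, the E box was in 12 of the 22, the ETS core in 12 and the octamer in 0. No share by gene was computed over all mouse genes, and the shares by promoter are not a background for these counts. A match is a description of letters and not a measured binding site.

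The coreceptors divide T cells into helper cells, which carry Cd4, and cytotoxic cells, which carry the chains Cd8a and Cd8b1. Cd4 read 7.33, 7.26 and 7.16 in ApoE-KO against 7.02, 7.83 and 7.57 in DKO, so the DKO arrays held both the lowest and the highest values. Its SD was 0.08 in ApoE-KO and 0.41 in DKO, and the difference of 0.22 did not pass (interval -0.23 to 0.68, adjusted p = 0.902, 0.541 with the block). Without both replicate 1 arrays, Cd4 was higher by 0.49 in limma's paired fit of the other 4 arrays and passed narrowly (adjusted p = 0.048). It was the 1 member of 32 to do so, beside 1.64% of all probe sets. With so few arrays, that p-value rests mainly on the spread that limma borrows from all probe sets. Without both replicate 2 arrays the Cd4 difference was 0.05 (adjusted p = 0.947), and without DKO replicate 2 alone 0.046. Macrophages and dendritic cells can also carry Cd4, and the macrophage list, with a median difference of -0.649 in replicate 1 and of 0.299 and 0.205 in replicates 2 and 3, moved with it. The part of those cells in the Cd4 values was not tested. Cd8a read 7.13, 7.21 and 7.09 in ApoE-KO against 7.00, 7.14 and 7.03 in DKO, a difference of -0.09 (adjusted p = 0.902). The Cd8b1 difference was 0.00 (interval -0.26 to 0.25).

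Cd2 and Cd28 were the members whose groups did not overlap, 2 of 32, beside 12.0% of all probe sets. Cd28 was the 1 member with all DKO arrays above (background 5.55%) and Cd2 the 1 with all below (6.47%). Cd2, an adhesion receptor of T and NK cells, read 7.23, 7.28 and 7.33 in ApoE-KO against 6.80, 7.12 and 7.17 in DKO. Its difference was -0.25 (interval -0.50 to 0.01, adjusted p = 0.862, and 0.225 with the block). DKO replicate 1 was the lowest array here too, and without it the Cd2 difference was -0.13. Cd28, the receptor of the second signal in T cell activation, read 6.41, 6.44 and 6.51 in ApoE-KO against 6.59, 6.79 and 6.65 in DKO. Its difference of 0.22 (interval 0.03 to 0.40) had an unadjusted p of 0.0269 and an adjusted p of 0.861, and 0.259 with the block. Icos, the related costimulatory receptor, differed by 0.01.

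Among the other T cell members, Il7r, the receptor of the survival factor interleukin 7, had its lowest value on DKO replicate 1. It read 7.23, 7.24 and 6.97 in ApoE-KO against 6.41, 7.26 and 7.27 in DKO. The difference was -0.16 (interval -0.71 to 0.38, adjusted p = 0.943), and it turned to 0.12 without that array. Foxp3, the transcription factor of regulatory T cells, ran from 7.44 to 7.84, with a difference of -0.08. Cd5, which dampens receptor signals, was the steadiest member, with values between 7.41 and 7.47. The receptor-proximal kinase Zap70 (-0.07) and Ltb, the lymphotoxin beta that shapes lymphoid tissue (-0.06), did not pass.

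In all, DKO replicate 1 gave the lowest value in 7 of 15 T cell members (Cd3d, Cd3g, Cd4, Cd8a, Cd2, Il7r and Ltb), in 3 of 6 NK and cytotoxic members (Nkg7, Gzma and Gzmb) and in 1 of 11 B and plasma cell members (Mzb1). The background share was 19.0%. The T cell list had a median difference of -0.059 and 5 of 15 members higher, and 0.001 and 8 of 15 without that array. That median was 0.005 with array weights, so no direction can be given. The macrophage and pan-leukocyte genes were lowest on the same array, and their part in these values was not tested.

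No cytotoxic gene passed the test between the groups. Prf1, the pore-forming perforin, read 7.56, 7.29 and 7.61 in ApoE-KO against 7.57, 7.57 and 7.56 in DKO, a difference of 0.08 (interval -0.15 to 0.31, adjusted p = 0.936). Gzmb, the granzyme that starts cell death in targets, read 6.33, 6.24 and 6.14 against 6.10, 6.39 and 6.34, and the DKO arrays held both the lowest and the highest value. Gzma, a second granzyme, differed by 0.02, and Nkg7, a granule membrane protein, by -0.02. Ncr1, the activating receptor NKp46 and the most specific NK marker of the list, read 5.24, 5.43 and 5.41 in ApoE-KO against 5.19, 5.04 and 5.34 in DKO (difference -0.17, interval -0.41 to 0.07, adjusted p = 0.866). Klrd1, the CD94 chain of NK receptors, read 5.64, 5.25 and 5.87 in ApoE-KO against 5.47, 5.29 and 5.78 in DKO. Its 3 values followed the replicate number in both groups, with replicate 2 lowest and replicate 3 highest, and differed by -0.07 between them (adjusted p = 0.967).

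Of the B and plasma cell members 6 of 11 had their highest values on the replicate 3 arrays of both groups, while 2 of 23 other B and plasma cell genes did, beside 9.0% of all probe sets. Tnfrsf17 was lower on those arrays, by a mean difference of -0.12. The median excess of these arrays over the others was 0.21 in the B and plasma cell list, 0.12 in the NK and cytotoxic list and 0.01 in the T cell list. Cd79a and Cd79b are the signalling chains of the B cell receptor, and Ms4a1 encodes CD20. Cd79a read 6.08, 5.87 and 6.83 in ApoE-KO against 6.02, 6.23 and 6.90 in DKO, the only member with a range of at least 1 over the 6 arrays, beside 3.73% of all probe sets. Both replicate 3 arrays were above the 4 others by 0.82 on average. Cd79b read 7.53, 7.37 and 8.0 in ApoE-KO against 7.48, 7.62 and 8.08 in DKO, and Ms4a1 read 5.38, 5.54 and 6.17 against 5.65, 5.95 and 6.22. The replicate 3 arrays were higher by 0.54 and 0.57 in these genes.

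Both replicate 3 arrays were above the 4 others in 6 of 11 B and plasma cell members (Cd79a, Cd79b, Ms4a1, Pax5, Cr2 and Cd22), in 2 of 6 NK and cytotoxic members (Gzma and Klrd1) and in 0 of 15 T cell members, beside 9.0% of all probe sets. The lung list, at 10 of 10, was high on the same arrays, and so were 5 of 10 neutrophil genes. Lung markers named for their range were Scgb1a1, the club cell secretoglobin, at 13.70 and 12.93 in the replicate 3 arrays and from 5.40 to 5.97 in the others, and the surfactant gene Sftpc, at 12.32 and 11.92 against 6.21 to 6.45. The part of lung tissue in the B cell values was not tested.

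The promoter of Cd79a, the member that varied most, is shown with its E box in capitals, read as above.
Cd79a, chr7:24897247-24897496, plus strand: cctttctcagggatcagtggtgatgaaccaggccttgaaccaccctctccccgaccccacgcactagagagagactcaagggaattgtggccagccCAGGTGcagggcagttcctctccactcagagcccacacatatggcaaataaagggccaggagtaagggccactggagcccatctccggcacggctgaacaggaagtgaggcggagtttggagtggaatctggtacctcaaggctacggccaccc
The E box starts 154 bases before the gene's start, and the ETS core lies nearer to it.

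Between the genotypes the B cell receptor genes and Ms4a1 did not pass the test. The differences were 0.13 for Cd79a (interval -0.59 to 0.84, adjusted p = 0.964), 0.09 for Cd79b (-0.39 to 0.58, 0.958) and 0.25 for Ms4a1 (-0.29 to 0.78, 0.911). With the block their adjusted p-values were 0.581, 0.610 and 0.274. Without both replicate 3 arrays they stood at 0.15, 0.10 and 0.34, and 0 of 32 members passed. Ms4a1 was higher in DKO in 3 of 3 pairs, but single arrays moved the size of its difference. It was 0.089 without ApoE-KO replicate 1, 0.107 without DKO replicate 3 and 0.485 without ApoE-KO replicate 3.

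Of the remaining B cell members, Fcer2a, the low-affinity IgE receptor CD23, read 6.19, 5.75 and 6.19 in ApoE-KO against 6.18, 6.05 and 6.48 in DKO (difference 0.19, adjusted p = 0.898, 0.357 with the block). Cr2, the complement receptor CD21 of mature B cells, read 5.67, 5.52 and 5.80 against 5.67, 5.64 and 5.91, and its groups overlapped. Pax5, the factor that holds B cell identity, the Src-family kinase gene Blk and the inhibitory lectin gene Cd22 differed by 0.06, 0.05 and 0.05. Pou2af1, a coactivator of B cell transcription, read 7.44, 7.24 and 7.32 in ApoE-KO against 7.20, 6.97 and 7.37 in DKO (difference -0.16, adjusted p = 0.884). The plasma cell genes Mzb1, a chaperone of antibody assembly, and Tnfrsf17, the survival receptor BCMA, each differed by -0.05. The list's median difference was 0.057 with 8 of 11 members higher, and its sign depended on single arrays, with -0.022 when ApoE-KO replicate 2 and -0.010 when DKO replicate 3 was left out.

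**Figure D2:**
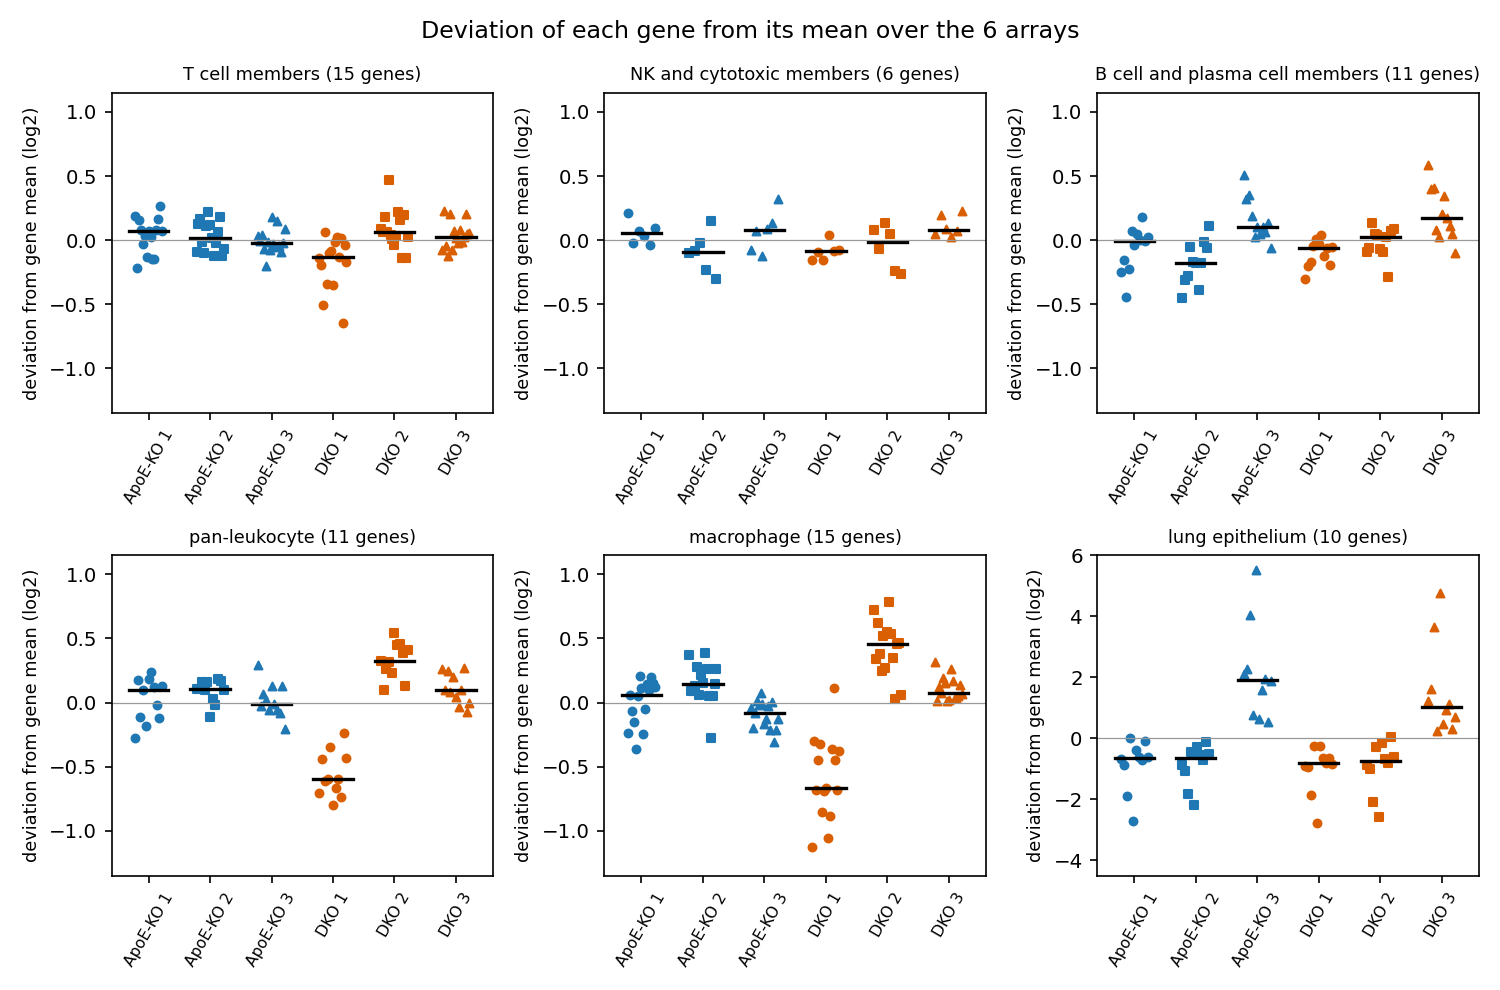
Deviation of each gene from its own mean over the 6 arrays (y axis, log2; 1 point per gene) on each array (x axis) for the 3 lymphocyte lists and 3 lists of other cells, with black bars at the medians and a wider y axis in the lung panel. The B and plasma cell medians are highest on the replicate 3 arrays, at 0.10 and 0.17, and the T cell median is lowest on DKO replicate 1, at -0.13, where the macrophage median is -0.66.

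By replicate number, the sign of DKO minus ApoE-KO was not the same in all pairs. In replicate 1, 8 of 32 members were higher in DKO, in replicate 2 23 and in replicate 3 18. The medians were -0.063, 0.098 and 0.048. The T cell list stood at -0.129, 0.016 and 0.009, the NK and cytotoxic list at -0.118, 0.098 and 0.033, and the B and plasma cell list at -0.056, 0.20 and 0.055. The pan-leukocyte list followed the same order with larger steps, at -0.613, 0.219 and 0.121.

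Only 3 members were higher in DKO in all pairs (Cd28, Ms4a1 and Cr2), beside 21.2% of all probe sets, and 4 were lower in all (Cd8a, Cd2, Ncr1 and Tnfrsf17), beside 19.1%. Together these are 7 of 32, beside 40.3% of all probe sets, and the other 25 had mixed signs. The widest spread between pairs was that of Il7r, at -0.81, 0.02 and 0.30, followed by Cd4 at -0.30, 0.57 and 0.41. The range of the 3 replicate number means exceeded the difference of the group means in 28 of 32 members, near the 80.4% of all probe sets. Such a range tends to be the larger even where neither matters. It is the widest gap among 3 means, and each number mean rests on fewer arrays than a group mean.

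**Figure D3:**
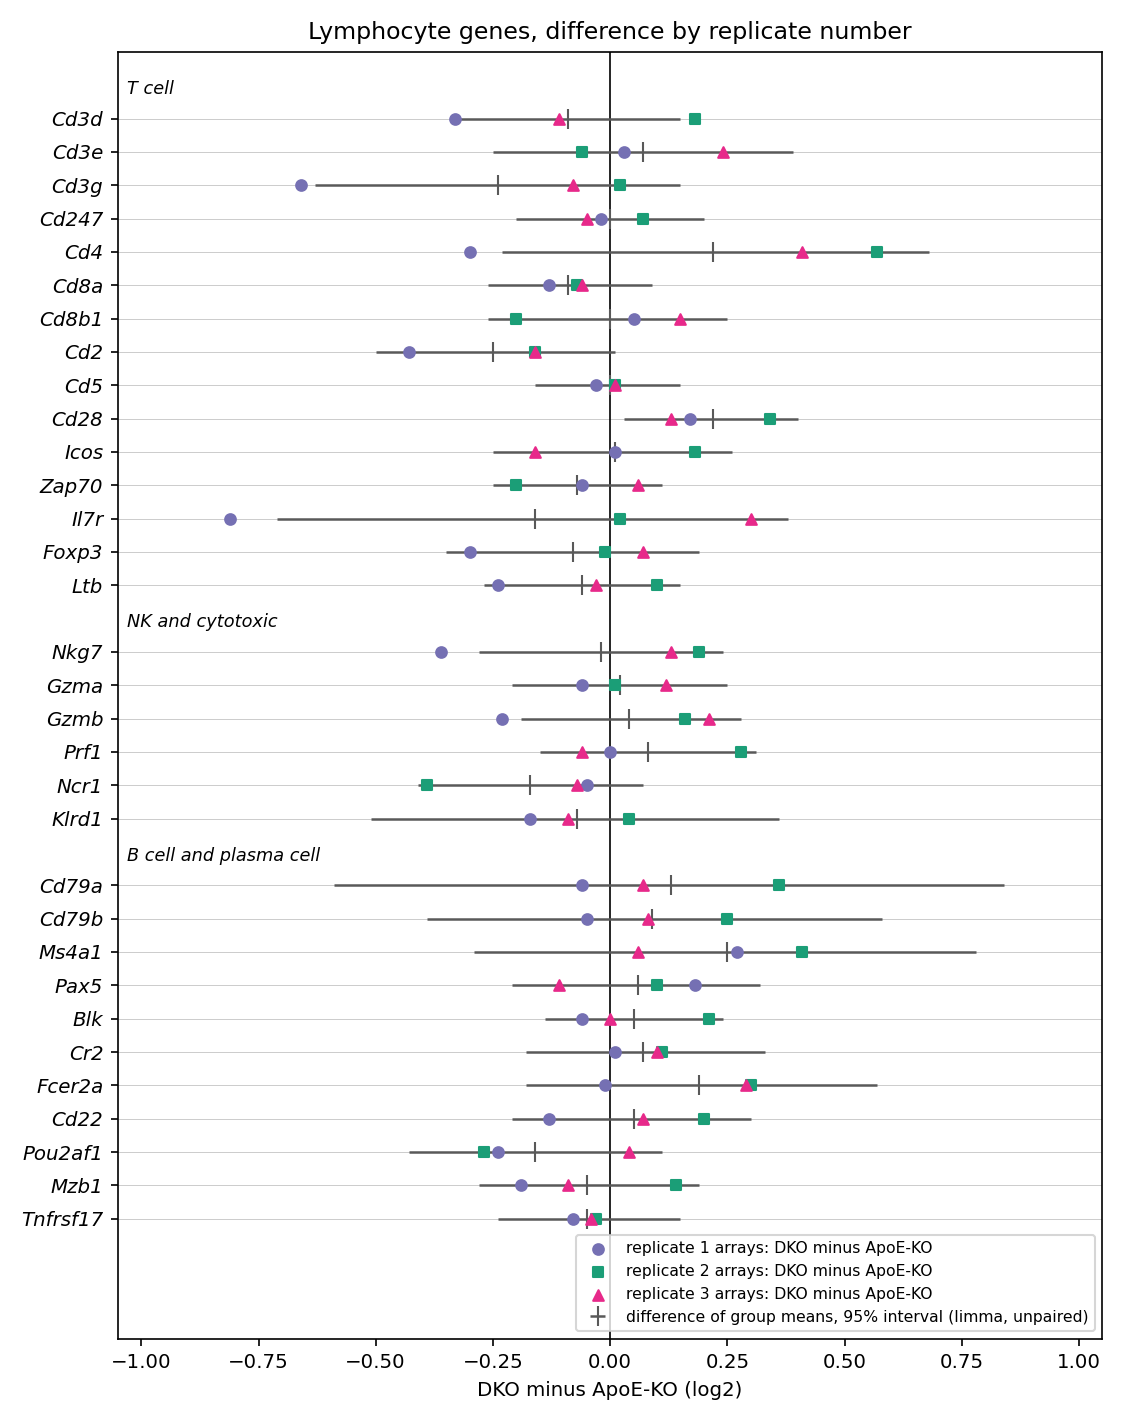
DKO minus ApoE-KO (x axis, log2) for each of the 32 genes (rows), with 1 coloured point per replicate number and a grey bar for the difference of the group means with its 95% interval. The replicate 1 points lie left of 0 in most rows, and the interval of Cd28 is the only one that does not cross 0.

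Genes that work beside the members also had 0 passing in limma's fits. Of 21 other T cell genes 10 were higher and 11 lower in DKO, 0 passed without or with the block, and 1 and 2 had an unadjusted p under 0.05 (backgrounds 5.62% and 16.2%). The smallest p was that of Ubash3a, a phosphatase-like brake on receptor signalling, at -0.23 (adjusted p = 0.861, 0.197 with the block). Bcl11b, a T lineage factor (-0.15), Lef1, a Wnt pathway factor of young T cells (-0.16), and Cd6, an adhesion receptor (-0.13), also did not pass. Of 12 T cell receptor signalling genes 6 were higher and 6 lower, 0 passed and 0 had an unadjusted p under 0.05 in either fit, and 11 of 12 were lowest on DKO replicate 1. The adaptor gene Lcp2 (SLP-76), also used by myeloid cells, read 8.41, 9.07 and 8.93 in ApoE-KO against 8.15, 9.28 and 9.02 in DKO. The exchange factor gene Vav1 differed by 0.01.

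Of 15 other NK and cytotoxic genes 5 were higher and 10 lower, with 0 passing and 0 at an unadjusted p under 0.05 in either limma fit. Ccl5, the chemokine RANTES made by T and NK cells, read 8.33, 7.77 and 8.16 in ApoE-KO against 7.74, 8.52 and 8.76 in DKO (difference 0.25, adjusted p = 0.930). It was lower in replicate 1 by a difference of -0.59 and higher in replicates 2 and 3 by 0.75 and 0.61. The medians of its list in replicates 1 to 3 were -0.048, -0.024 and -0.006. Those of the macrophage list were -0.649, 0.299 and 0.205, and the part of macrophages in the Ccl5 values was not tested. Xcl1, the chemokine lymphotactin, differed by -0.23 (adjusted p = 0.862).

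Of 23 other B and plasma cell genes 8 were higher and 15 lower, with 0 passing in either limma fit and 1 and 4 of 23 at an unadjusted p under 0.05, against the same backgrounds. Irf4, a transcription factor of plasma cells and activated T cells, had the smallest p of them, at 7.27, 7.41 and 7.38 in ApoE-KO against 6.91, 7.04 and 6.99 in DKO. Its groups did not overlap, and the pairs stood at -0.36, -0.37 and -0.39. The difference of -0.37 had an adjusted p of 0.596, and 0.0866 with the block. Which cells of the aorta the Irf4 values came from was not tested. Derl3, a protein of endoplasmic reticulum quality control that is high in plasma cells, differed by -0.29 (adjusted p = 0.862, 0.185 with the block). Cd72, a B cell receptor also found on some macrophages, read 7.90, 7.96 and 7.89 in ApoE-KO against 7.01, 8.53 and 8.14 in DKO.

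Of the 11 genes of lymphoid tissue stroma and homing, the range over the 6 arrays had a median of 0.51 and ran from 0.07 to 2.74. Cxcl13, the chemokine that attracts B cells, read 8.04, 8.26 and 8.51 in ApoE-KO against 7.08, 9.82 and 8.75 in DKO, with the lowest and highest values both in DKO (difference 0.28, adjusted p = 0.958). Ccl19, which attracts T cells and is named by 5 probe sets, ran from 10.54 to 11.47 in the brightest, with a difference of -0.18 (adjusted p = 0.935). Tnfsf13b, the B cell survival factor BAFF, differed by -0.33 (adjusted p = 0.871, 0.223 with the block). Chst4, a sulfotransferase that makes ligands for lymphocyte homing, was at 6.49, 6.52 and 6.57 in ApoE-KO against 6.83, 7.03 and 6.87 in DKO. Its difference of 0.38 did not pass (adjusted p = 0.657, 0.107 with the block). In all, 3 of 11 genes of this list were higher in DKO, beside 49.6% of all probe sets naming 1 gene. In limma's fits without and with the block 0 passed, and 1 and 4 of the 11 had an unadjusted p under 0.05, beside 5.62% and 16.2% of all probe sets.

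Genes of lymphocyte precursors, of which only some would mark thymus tissue beside the aorta, also had 0 passing in either limma fit. Of 13 such genes 4 were higher and 9 lower, beside 49.6% higher of all probe sets naming 1 gene. An unadjusted p under 0.05 was held by 1 in each fit, beside 5.62% and 16.2% of all probe sets. In 0 were both replicate 3 arrays highest, beside 9.0%. The pre-T cell receptor gene Ptcra differed by -0.10 and Vpreb1, the surrogate light chain gene of early B cells, by -0.23 (adjusted p = 0.861).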

How the data were processed

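Aortic RNA of 6 samples was hybridised to Affymetrix whole-transcript arrays. The authors deposited log2 intensities for 25254 probe sets. The submitters' processing notes name RMA, Partek and build mm9, with no tool version, and nothing read here says whether a batch effect was removed.

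The platform's annotation names 1 gene for 21496 probe sets, several for 1565 and none for 2193. Of the first, 21415 matched RefSeq (GRCm38.p6) by Entrez identifier, with 0 symbols changed. Each gene was represented by its probe set with the highest mean. Array medians lay between 8.01 and 8.02, and correlations between arrays from 0.983 to 0.995.

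All probe sets were fitted with limma 3.58.1 in R 4.3.3 (lmFit, eBayes with trend; two-sided, Benjamini-Hochberg at 0.05), unpaired and with the replicate number as a block. Deviations from group means of same-numbered arrays correlated at 0.60, 0.50 and 0.64 over all probe sets and at 0.23, 0.53 and 0.64 over the members. Those of arrays with different numbers correlated at -0.53 to -0.10 over all probe sets and at -0.50 to 0.08 over the members. The numbers were therefore taken as pairs from the data, since no label says what they share. For the members the pairing of replicate 1 was weak, at 0.23 beside 0.08 between ApoE-KO replicate 1 and DKO replicate 2. Where samples are not separate mice, p-values measure technical spread only. With 3 against 3, an exact permutation test cannot go below 0.1.

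On simulated data for this comparison over 25254 probe sets, the unpaired fit passed 77% of those changed by 1 (log2) and the paired fit 64%. The simulated noise was drawn for each array alone, without the part that same-numbered arrays share. In the simulation 100 probe sets were changed by 1 and 100 by 2. In the deposited data 0 passed unpaired, and Retn at -1.53 had an adjusted p of 0.368 (limma). These shares therefore do not say how often such a change would pass here, or which fit is stronger. Members, the 21 marker lists and the comparisons were chosen with earlier results of these data known. All members are named, with every array's value where the mean exceeds the median of all probe sets, the range is at least 1 or p is among the 4 smallest of a list; some others were added after their values were seen. Of other lists up to 4 genes are named by p and 3 by range. Alternatives were the block, a filter at the 40th percentile, renewed quantile normalization, median centring, eBayes options, array weights, probe set averaging, and arrays or pairs left out.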

Additional observations from a re-analysis of the deposited data

How the results depend on the processing

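The count of 0 of 32 lymphocyte genes passing held with the replicate block, the filter, renewed quantile normalization, median centring, each eBayes option, array weights and each single array left out, with adjusted p from 0.439 upward in the unpaired settings that kept all arrays. The exception was the paired fit without both replicate 1 arrays, with 1 member passing (Cd4), so the count ran from 0 to 1 when arrays were left out. That fit, like the others without a pair, has 4 arrays. Its p-values rest mainly on the spread that limma borrows from all probe sets. Over all probe sets, 44 passed with the replicate block against 0 without it, and with arrays left out from 0 to 415, among them 8 without DKO replicate 3, 48 without both replicate 3 arrays and 415 without both replicate 1 arrays. The cause was not tested. The block changed no member's call. Only 5 members lay above the 40th percentile of the mean, of which 3 were higher in DKO; fewer genes were tested there. The number higher was 21 with array weights and 19 after renewed quantile normalization, and ran from 10 (without ApoE-KO replicate 2) to 22 (without both replicate 1 arrays) of 32. Averaging a gene's probe sets changed nothing, since each member has 1.

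Small differences changed sign while staying far from the threshold. After renewed quantile normalization Cd8b1 stood at 0.035, Cd5 at 0.029 and Nkg7 at 0.024. With array weights Cd3d stood at 0.012, Cd5 at 0.005, Ltb at 0.009, Nkg7 at 0.083 and Mzb1 at 0.024. With arrays or pairs left out, the members' differences (log2) ran as follows: Cd3d -0.220 to 0.035, Cd3e -0.028 to 0.183, Cd3g -0.395 to -0.034, Cd247 -0.035 to 0.063, Cd4 0.046 to 0.488, Cd8a -0.130 to -0.053, Cd8b1 -0.077 to 0.104, Cd2 -0.320 to -0.134, Cd5 -0.021 to 0.012, Cd28 0.153 to 0.260, Icos -0.076 to 0.094, Zap70 -0.132 to 0.000, Il7r -0.395 to 0.160, Foxp3 -0.165 to 0.030, Ltb -0.136 to 0.033, Nkg7 -0.119 to 0.156, Gzma -0.068 to 0.074, Gzmb -0.035 to 0.181, Prf1 -0.027 to 0.143, Ncr1 -0.244 to -0.057, Klrd1 -0.246 to 0.068, Cd79a -0.135 to 0.412, Cd79b -0.084 to 0.278, Ms4a1 0.089 to 0.485, Pax5 -0.041 to 0.167, Blk -0.031 to 0.105, Cr2 -0.010 to 0.143, Fcer2a 0.048 to 0.297, Cd22 -0.029 to 0.136, Pou2af1 -0.257 to -0.054, Mzb1 -0.139 to 0.038, Tnfrsf17 -0.103 to -0.005. Members with lower signal have unknown background, and the number of arrays limits the precision.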

Other observations

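Immunoglobulin and T cell receptor genes were not among the members, and their probe sets, which often name several genes, were looked at after the values of the B cell members were seen. Of 17 probe sets naming light chain genes alone, 10 had both replicate 3 arrays above the 4 others, as did 4 of 9 naming heavy chain genes, beside 9.0% of all probe sets. The median excess of the replicate 3 arrays was 0.40 and 0.24 (log2). Of 36 probe sets with distinct values that name T cell receptor segments, 5 did so, and 16 had their lowest value on DKO replicate 1 (background 19.0%). Of these 36 probe sets 6 were higher in DKO, beside 49.6% of all probe sets naming 1 gene. Their median difference was -0.08, with a range from -0.35 to 0.19. They share segments and sequence, and are not independent of each other. Between the genotypes 0 light chain, 0 heavy chain and 0 T cell receptor probe sets passed (limma, lowest adjusted p = 0.862 in each). At an unadjusted p under 0.05 stood 0 of them, beside 5.62% of all probe sets. With the replicate block 0 passed (limma, lowest adjusted p = 0.225, 0.283 and 0.257). An unadjusted p under 0.05 was found in 2 of 17, 1 of 9 and 4 of 36, beside 16.2% of all probe sets.

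Neutrophil genes are a second blood cell list with high values on the replicate 3 arrays, in 5 of 10, while mast cell genes had 2 of 8, endothelial genes 2 of 9 and dendritic cell genes 0 of 8. The lists of red blood cells (1 of 3), smooth muscle (1 of 10), nerve (2 of 6), adipocytes (0 of 9) and lymphatic endothelium (0 of 6) are given for completeness.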
